A study of Mus musculus with 32 samples.

Results

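Chromatin-enriched RNA (cheRNA) labelled intergenic by its name was examined where the gene that lends the transcript its name also changed. The 403 intergenic transcripts described here are those in the authors' deposited table whose gene name also occurs there as a gene transcript, on all chromosomes but 9 and 11. They were thus selected on their presence, and that of the gene, among transcripts past the authors' fold threshold, and no filter on low values was applied here. They were 403 of 5723 listed transcripts, carried 295 gene names, and were accompanied by 444 gene transcripts of those names. Of the 1664 genes with a listed gene transcript on the chromosomes used, 17.7% had at least 1 such intergenic neighbour. Both groups of the study were mouse embryonic stem cells, one wild type (WT) and one labelled H1-TKO, a line known to lack the linker histone genes Hist1h1c, Hist1h1d and Hist1h1e. Neither the origin of the lines nor whether the TKO line is 1 clone is stated in the labels, and no drug or other treatment is named for these samples. cheRNA came from 3 samples per genotype, represented by 1 table with a log2 fold change per transcript and no value per sample. MapR, in which catalytically inactive RNase H fused to micrococcal nuclease (RNH) releases DNA near RNA-DNA hybrids, had 2 RNH libraries and 1 nuclease-only control per genotype. The direction of the fold changes is not stated in the table and was set from the deleted genes, whose transcripts had to be lower in TKO: Hist1h1d then read -5.02, Hist1h1e -4.83 and Hist1h1c -3.61 on the log2 scale, TKO over WT, in the authors' deposited table.

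Linker histone H1 sits on the DNA that joins neighbouring nucleosomes and favours compact chromatin. RNA that stays attached to chromatin includes nascent transcripts, RNA that polymerase makes past the end of a gene before termination, antisense and promoter-upstream RNA, and long non-coding RNA, much of which is degraded in the nucleus. An RNA beside a gene may therefore be a separate transcript, or a continuation of the gene's own RNA, and a list of fold changes does not tell these apart.

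The intergenic transcripts are shown here by 6 stretches of their DNA, read 5' to 3' on the strand of the transcript from the mm10-equivalent GRCm38 genome. The first 3 are 200-base windows at RNH peaks that all 4 RNH libraries shared, the fourth is a window at peaks found in both TKO libraries and neither WT library, and capitals mark the dinucleotide CG. The last 2 are 100-base windows from RNAs directly downstream of their gene, with capitals on GGACT, a form of the sequence in which N6-methyladenosine is commonly placed. The set was chosen after the values were seen, to show places with peaks in both genotypes, a place with peaks in 1 genotype, and the RNA itself.
Otx2, intergenic, chr14:48701026-48701225, plus strand: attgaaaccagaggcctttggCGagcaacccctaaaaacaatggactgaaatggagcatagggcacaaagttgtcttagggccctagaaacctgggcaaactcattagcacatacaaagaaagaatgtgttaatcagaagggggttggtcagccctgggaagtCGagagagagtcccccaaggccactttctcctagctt
Pim1, intergenic, chr17:29451294-29451493, minus strand: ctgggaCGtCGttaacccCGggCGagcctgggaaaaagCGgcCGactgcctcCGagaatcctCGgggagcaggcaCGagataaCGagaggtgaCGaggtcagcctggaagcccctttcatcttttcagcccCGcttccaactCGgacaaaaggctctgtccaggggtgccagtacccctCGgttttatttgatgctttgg
Lpp, intergenic, chr16:25059007-25059206, plus strand: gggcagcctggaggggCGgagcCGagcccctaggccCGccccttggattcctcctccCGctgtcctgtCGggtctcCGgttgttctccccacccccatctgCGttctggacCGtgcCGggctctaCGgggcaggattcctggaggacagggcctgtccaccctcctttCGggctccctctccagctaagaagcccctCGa
Efna5, intergenic, chr17:62111859-62112058, plus strand: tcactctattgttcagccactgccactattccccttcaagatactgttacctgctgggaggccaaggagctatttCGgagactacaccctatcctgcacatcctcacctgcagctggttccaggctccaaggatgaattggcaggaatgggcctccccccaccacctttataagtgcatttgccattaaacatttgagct
Mgat4e, intergenic, chr1:134534589-134534688, minus strand: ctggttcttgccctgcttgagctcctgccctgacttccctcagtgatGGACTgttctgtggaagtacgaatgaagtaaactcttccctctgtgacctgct
Tlr5, intergenic, chr1:182979389-182979488, plus strand: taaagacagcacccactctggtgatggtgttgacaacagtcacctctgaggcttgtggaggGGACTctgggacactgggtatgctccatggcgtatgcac
The Pim1 window holds 14 CG and the Lpp window 12, whereas the Otx2 window holds 2 and the Efna5 window 1. Peaks of all 4 libraries overlapped one another at 14 sites in 13 of the RNAs. At the site with the highest smallest fold enrichment in each of the 13, the windows held a median of 11 CG (range 0 to 16), and 8 of them held at least 5. Windows of the same length in the middle of the 403 transcripts held a median of 2, with at least 5 in 9.93% and at least 1 in 82.6%. GGACT occurred once in the 378-base Tlr5 transcript and once in the 1547-base Mgat4e transcript, and at least once in 96.3% of the 403. Its median density was 0.856 per kb of transcript, beside 0.873 in the 1280 intergenic transcripts of the same chromosomes that have no listed gene transcript of their name, and a match of these letters is not a measured methylation site.

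More of the 403 were higher than lower in TKO. Of these, 248 (61.5%) were higher and 155 lower, whereas 60.1% of all listed transcripts were higher, 58.9% of those on the chromosomes used, 74.0% of all intergenic transcripts and 45.0% of all gene transcripts. Since the membership rule uses the same fold changes, these shares are descriptions without a test. The 1280 other intergenic transcripts were higher in 76.2%, the 444 gene transcripts of the same names in 51.4% and the 1998 other gene transcripts in 42.3%. The higher transcripts had a median log2 of 2.82 (7.05-fold) and the lower ones -2.12 (4.35-fold), and 37.0% of the 403 differed at least 8-fold. The other intergenic transcripts were close to this, with medians of 2.62 and -1.93 and 35.5% that differed at least 8-fold. Over all listed transcripts 23.0% did so. For the gene transcripts of the same names the medians were 1.97 and -1.82, and 62 of 444 differed at least 8-fold. The smallest values on either side were -1.01 for an RNA named for Cdk6 and 1.01 for one named for Tmem45a, close to the smallest absolute value anywhere in the authors' deposited table, 1.00. Median width was 7487 bp, with a range from 378 to 406722 bp. The other intergenic transcripts had a median width of 7490 bp.

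Most intergenic RNAs changed in the direction of the gene transcript of their name. Each intergenic RNA was paired with the nearest gene transcript of its name, and 333 of 403 pairs (82.6%, exact binomial 95% interval 78.6 to 86.2, counting error only) changed in the same direction. Both were higher in 184 pairs and both lower in 149. Where the gene transcript was higher, the intergenic RNA was higher in 184 of 190 pairs (96.8%), and where the gene transcript was lower, the intergenic RNA was lower in 149 of 213 (70.0%). Counted from the RNA, a lower one had a lower gene in 96.1% and a higher one a higher gene in 74.2%. For the other intergenic transcripts, set against the nearest gene transcript of any name, the share in the same direction was 55.4%, with 81.8% of 636 pairs where that gene transcript was higher and 29.3% of 644 where it was lower. The same 403 set against the nearest gene transcript of another name changed in its direction in 61.3%, at a median distance of 415668 bp. The share with the same direction was 81.4% when each of the 295 names had 1 vote. These pairs share table, samples and normalization, and several intergenic RNAs share a gene, so they are not independent. Across all 403 pairs Pearson's r was 0.68 and Spearman's coefficient 0.65, which describe pairs that had each passed the authors' fold threshold.

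**Figure D1:**
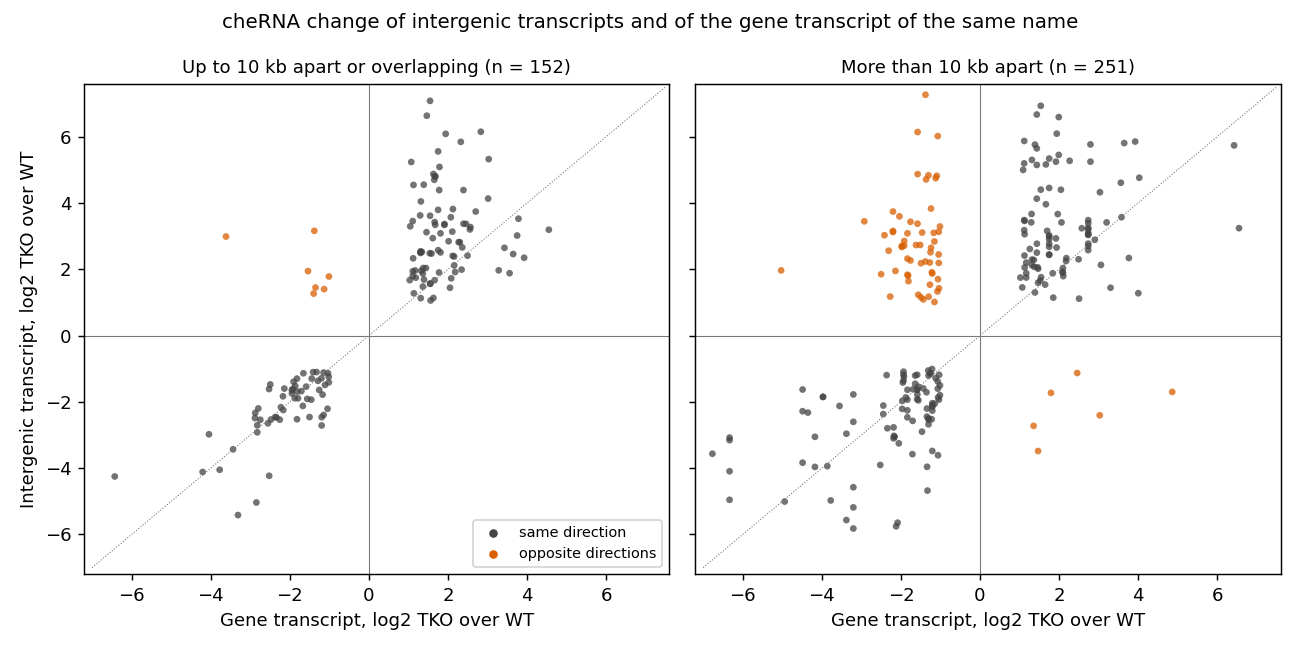
Each point is 1 intergenic transcript, with the log2 fold change (TKO over WT) of the nearest gene transcript of its name on the x axis and its own on the y axis; orange marks opposite directions and the dotted line equal change. The left panel, up to 10 kb apart, holds 152 pairs with 7 in opposite directions, and the right panel holds 251 pairs with 63, most of them in the upper left, where the intergenic RNA was higher and the gene lower.

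Shared direction was most frequent at short distance. Of the 61 intergenic RNAs that overlapped the gene transcript, all on the opposite strand, 56 changed with it (91.8%). Of those that lay apart, 47 of 47 within 5 kb did so, 42 of 44 between 5 and 10 kb, 88 of 112 between 10 and 50 kb (78.6%), 36 of 45 between 50 and 100 kb (80.0%) and 64 of 94 beyond 100 kb (68.1%). Pearson's r was 0.85 (Spearman's coefficient 0.79) over the 152 pairs up to 10 kb apart or overlapping, and 0.61 (0.57) over the 251 farther apart. The other intergenic transcripts shared the direction of their nearest gene transcript in 70.7% of 82 pairs at 10 to 50 kb, in 67.8% of 90 at 50 to 100 kb and in 52.5% of 1090 beyond 100 kb. At up to 10 kb only 18 of them could be compared, and all 18 shared the direction. Set against the nearest gene transcript of another name, the 403 shared its direction in 7 of 7 pairs up to 10 kb apart and not overlapping, in 28 of 35 at 10 to 50 kb (80.0%), in 28 of 31 at 50 to 100 kb (90.3%) and in 180 of 325 beyond 100 kb (55.4%). Up to 100 kb, overlapping pairs aside, these shares were thus no lower than beside a gene transcript of the same name. The differences between the sets were not tested, because the rule chose the pairs.

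**Figure D2:**
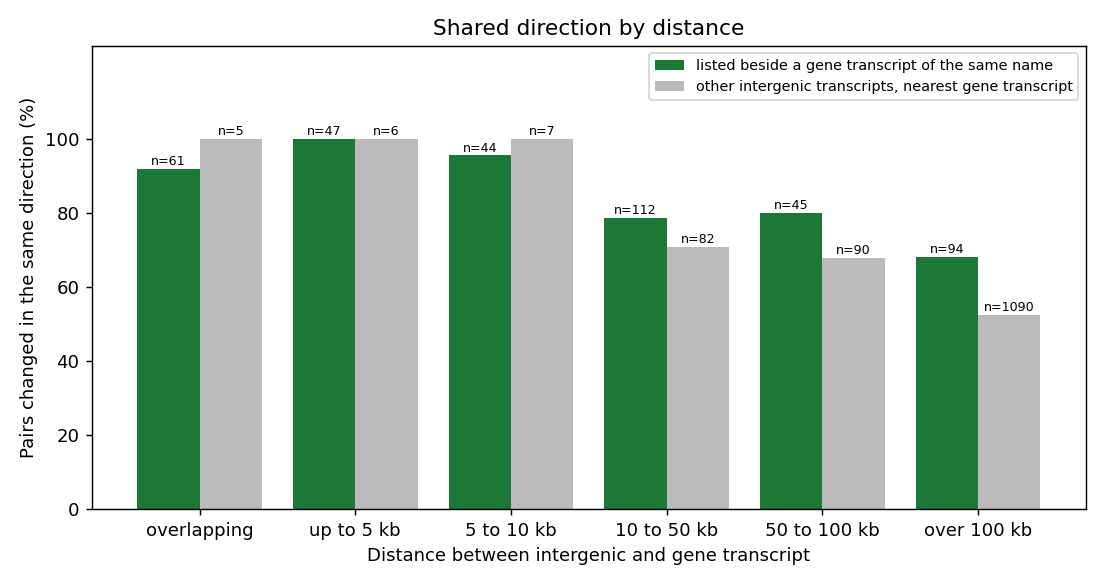
Bars give the percentage of intergenic transcripts changed in the same direction as a gene transcript, by the distance between them, with the number of pairs above each bar; green marks the 403 with a gene transcript of the same name and grey the 1280 others with the nearest gene transcript. Green bars fall from 100% within 5 kb to 68.1% beyond 100 kb, and grey bars to 52.5%.

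Where both members of a pair changed in the same direction, the intergenic RNA usually changed more. It was further from 0 than the gene transcript in 232 of 333 pairs, by a median of 0.55 on the log2 scale over all 333. In the pairs in which both were higher this held in 148 of 184, with medians of 2.96 for the intergenic RNA and 1.75 for the gene transcript. In the pairs in which both were lower it held in 84 of 149, with medians of -2.12 and -1.86. Intergenic transcripts had larger folds than gene transcripts whether paired or not. Median absolute log2 was 2.51 for the intergenic RNAs described here and 2.40 for the other intergenic transcripts. It was 1.86 for the gene transcripts of the same names and 1.76 for other gene transcripts. Larger folds were thus common to intergenic transcripts, and whether pairing adds to this was not tested. The table gives neither the level of the RNAs nor the depth behind the folds.

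By position, the largest class lay downstream of the gene transcript on its strand. It held 128 RNAs, of which 106 changed with the gene (82.8%). Another 79 lay upstream on the same strand (82.3% in the same direction), 104 upstream on the opposite strand (81.7%), and 31 downstream on the opposite strand (67.7%), whose median distance, 124764 bp, was the largest of the classes. All 57 RNAs on the strand of the gene and within 10 kb of its transcript changed with it, 34 higher and 23 lower.

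Against the GENCODE annotation (release M21) the label intergenic did not hold for most of the 403. An annotated gene lay on the RNA's own strand in 176 (43.7%), and a coding gene on that strand in 85 of these. In 73, annotated genes lay on the opposite strand only. Of the 403, 139 overlapped the annotated gene whose name they carried, 68 on its strand and 71 on the other. Changes went with the gene transcript in 66 of those 68 and in 62 of those 71. Another 154 RNAs (38.2%) touched no annotated gene at all, and 120 of these (77.9%) changed with the gene transcript, among them 38 of 38 within 10 kb. The named gene was the nearest coding gene in 346 of the 394 cases whose name was found. Whether a same-strand RNA over or directly past its gene was a part of the gene's own RNA was not tested.

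The 22 RNAs that lay downstream on the same strand within 5 kb of the gene transcript's end all changed with it, 14 higher and 8 lower, with a median absolute difference of 0.60 on the log2 scale. Of the 22, 17 lay over the annotated gene and 5 past its annotated end. Downstream of Mgat4e, a member of a glycosyltransferase family, a 1547-bp RNA (minus strand, mm10, chr1:134533972-134535518, outside annotated genes) was higher by 3.42 in the authors' deposited table, and the gene transcript 2573 bp away by 1.66. At Kif5a, a kinesin heavy chain of neurons, the authors' deposited table gave 3.34 for the RNA (chr10:127215511-127220510, minus strand, outside annotated genes) and 1.68 for the gene transcript. At Efcab1, which encodes an EF-hand calcium-binding protein, the order was the other way, with 3.19 for the RNA and 4.55 for the gene transcript in the authors' deposited table. For Klhl3, a substrate adaptor of a cullin ubiquitin ligase, the values in the authors' deposited table were 2.66 and 2.36. The RNAs of Efcab1 and Klhl3 lay over the annotated gene, unlike those of Mgat4e and Kif5a.

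Among lower pairs, Tlr5, the receptor for bacterial flagellin, stood out by size: its 378-bp RNA (chr1:182979111-182979488, plus strand, 3066 bp past the annotated end) read -5.41 and the gene transcript -3.31 in the authors' deposited table. For Hspa12b, a relative of the Hsp70 chaperones, the RNA read -2.53 and the gene transcript -2.48 in the authors' deposited table, at 3111 bp. Fam160a1 had -2.54 and -2.75, and Sned1, an extracellular matrix protein, -2.52 and -1.82, in the authors' deposited table. The RNAs of these 3 genes lay over the annotated gene, so that only the Tlr5 RNA of the 4 lay beyond it.

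**Figure D3:**
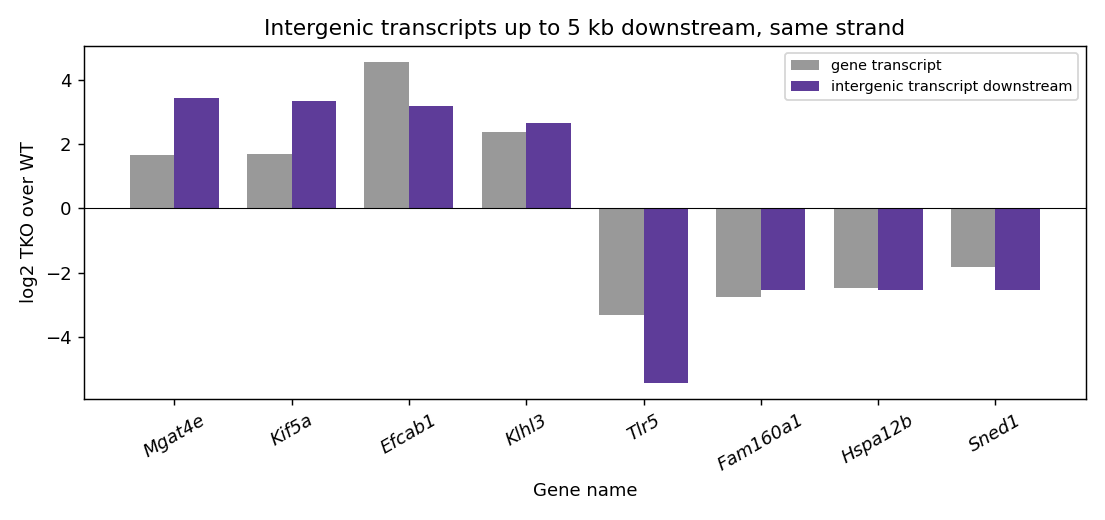
Bars give the log2 fold change (TKO over WT) of the gene transcript (grey) and of the intergenic transcript within 5 kb downstream on the same strand (purple), for the 4 largest changes in each direction. Gene and downstream RNA have the same sign in all 8 pairs, from 3.42 at Mgat4e to -5.41 at Tlr5 for the downstream RNA.

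The highest intergenic RNAs went mostly with modestly higher genes. The 6 highest in the authors' deposited table were named for Tenm4 (7.27), Ifnlr1 (7.08), 1500009L16Rik (6.93), Arhgef28 (6.67), Msrb2 (6.63) and Chst1 (6.59), which is 96.4-fold to 154-fold. The gene transcripts of Ifnlr1, a chain of the interferon lambda receptor, 1500009L16Rik, Arhgef28, a guanine nucleotide exchange factor, Msrb2, a methionine sulfoxide reductase, and Chst1, a carbohydrate sulfotransferase, were higher by 1.44 to 1.99 in the authors' deposited table. The Ifnlr1 RNA was antisense to its gene (chr4:135707019-135711972, minus strand) and the Msrb2 RNA lay 4500 bp upstream on the other strand (chr2:19363905-19367206). Tenm4, a teneurin of neuronal cell contacts, was the exception: its gene transcript read -1.38 in the authors' deposited table and lay 1561988 bp from the RNA, the largest distance of all 403, and the RNA lay over the annotated gene Gm32647.

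The 6 lowest all went with a lower gene. They were 2 RNAs upstream of Adgrl2, an adhesion G protein-coupled receptor (-5.82 and -5.18, gene transcript -3.20), and 1 each at B4galnt1, a ganglioside synthase (-5.75, gene -2.12), Ppp1r9a, the actin-binding neurabin (-5.65, gene -2.08), the transcription factor Klf12 (-5.57, gene -3.38) and Tlr5, described above, in the authors' deposited table. All 6 lay outside annotated genes and were further from 0 than their gene transcript. Their distances to it ran from 3104 bp at Tlr5 to 200165 bp at Klf12.

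Several names carried runs of intergenic RNAs that all changed in 1 direction. Of the 64 names with at least 2, 56 had all of them in 1 direction. Of the 64, 45 had only 2, and 61.5% of all the intergenic RNAs described here were higher. Some names would thus share a direction from that alone. No such share was computed for names of the other intergenic transcripts. Bcat1, the cytosolic branched-chain amino acid transaminase, had 12, all higher, from 2.43 to 5.56 in the authors' deposited table, with a gene transcript at 1.75. The 12 lay on both sides of the gene, up to 303118 bp away, with the 4 highest between 6385 and 19392 bp of the gene transcript. Sox5, a transcription factor of the SOX family, had 10, all on its strand and upstream, at 122428 to 458528 bp, with values from 2.58 to 3.48 in the authors' deposited table, and 3 gene transcripts from 2.74 to 4.28. The runs of Sox5 and Bcat1 are neighbours on chromosome 6, so these 22 RNAs between 144239068 and 145103122 share 1 region. Without the 2 names the share of higher intergenic RNAs was 59.3% of 381 and the share in the same direction 81.6%.

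Adgrl2 had 5 RNAs, all lower, from -5.82 to -1.78 in the authors' deposited table. Among names with 4 each, all 4 were higher at Arhgef28 (4.13 to 6.67, gene transcript 1.44, in the authors' deposited table). All 4 were lower at Nr4a2, a nuclear receptor of the immediate early response, and at Pid1, Psd3 and Tmem38b. Lpp, a LIM protein of focal adhesions, was mixed: its gene transcript read -1.83 in the authors' deposited table, the RNA upstream of it -1.63, and the 3 downstream RNAs 1.83, 3.08 and 2.32.

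**Figure D4:**
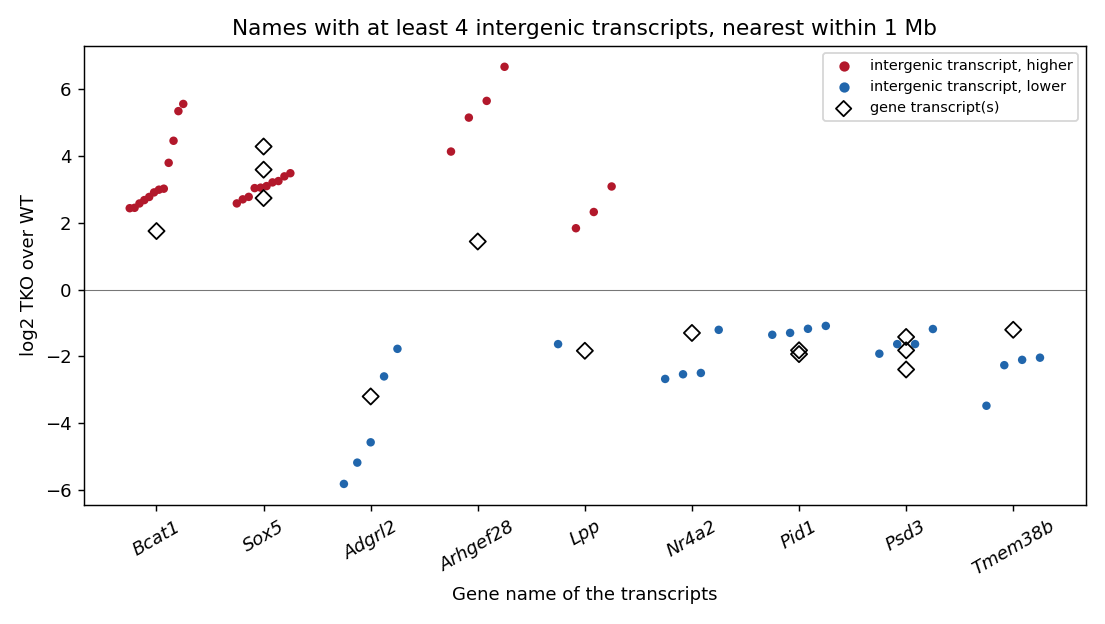
Points give the log2 fold change (TKO over WT) of each intergenic transcript of 9 names that carry at least 4, with the nearest of them within 1 Mb of the gene transcript, red where higher and blue where lower; open diamonds give the gene transcripts (the lowest, median and highest where there are more than 2). All points of a name lie on 1 side of 0 except at Lpp, where 3 of 4 are higher and the gene transcript reads -1.83.

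In most pairs of opposite directions the RNA was higher. In 64 of the 70 such pairs, from 54 names, the intergenic RNA was higher and the gene lower, at a median distance of 51953 bp, and 57 of the 64 lay more than 10 kb apart. The other intergenic transcripts had the same lean, in 455 of 571 opposite pairs (79.7%), and among the 403 it follows from there being 248 higher RNAs but 190 pairs with a higher gene. Pairs in the same direction had a median distance of 15560 bp. The 5 largest differences were at Tenm4, described above, Tpra1 (6.14 against -1.58), Lrig1, a negative regulator of receptor tyrosine kinases (6.02 against -1.07), H60c, a ligand of an activating natural killer cell receptor (1.97 against -5.03), and Hist1h1c (2.99 against -3.61), in the authors' deposited table. The Tpra1 RNA lay over the annotated gene 4933427D06Rik and the Lrig1 RNA outside every annotated gene.

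Hist1h1c differs from the others in that it is a deleted gene. The RNA of its name (chr13:23734753-23740880, minus strand, 6128 bp) overlapped the gene transcript on the opposite strand and was 7.93-fold higher in the authors' deposited table. What the deletion leaves at this locus is not stated in the labels, and the part of the altered locus in this RNA was not tested. Besides Hist1h1c, 4 antisense RNAs overlapped a lower gene transcript and were themselves higher, at Gcnt2 (1.45), Traf1 (1.95), Grik3 (1.27) and Etnk1 (1.40) in the authors' deposited table.

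The reverse, a lower RNA beside a higher gene, occurred in 6 pairs and at no distance under 117230 bp. These were at Nrcam, a neuronal cell adhesion molecule (-2.41, gene 3.03), Dpf3 (-2.72, gene 1.36), Pfkp, a phosphofructokinase (-3.48, gene 1.47), Pdzrn4 (-1.73, gene 1.80), Pdha2, the testis form of a pyruvate dehydrogenase subunit (-1.70, gene 4.86), and Kcnd2, a voltage-gated potassium channel (-1.13, gene 2.46), in the authors' deposited table. All 6 RNAs lay on the strand of the gene. The Dpf3 RNA lay 242161 bp from the listed gene transcript but 4643 bp from the annotated gene end.

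Some genes of pluripotency and early lineages were among the names. Of 26 pluripotency genes, 24 lay on the chromosomes used. A listed gene transcript was there for 7 of the 24 (29.2%), beside 8.46% of all coding genes. That background counts every annotated coding gene, expressed in these cells or not, so the 2 shares are not like for like. Of the 7, 4 had 5 intergenic RNAs here, beside 17.7% of all genes with a listed gene transcript that had any. Of these 5, 2 were higher and 3 lower. Dppa3, an oocyte and naive-state factor, had a 1014-bp RNA 7009 bp downstream that read 4.13 beside 3.01 for the gene transcript, and Lefty1, an inhibitor of Nodal signalling, had one 7222 bp upstream that read 2.47 beside 1.58, in the authors' deposited table. The Klf5 RNA, antisense to a listed transcript of this self-renewal factor, read -2.16 beside -2.23 in the authors' deposited table. Both Myc RNAs lay downstream on its strand and read -1.64 and -1.42 beside -1.95 in the authors' deposited table. The second of them spans 252663 bp over the annotated non-coding gene Pvt1.

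Lineage markers contributed 4 more. Otx2 (2.66, gene 1.94) and Pax6 (1.66, gene 1.52), of 12 neuroectoderm genes, and Gsc (5.32, gene 3.03), of 11 mesoderm genes, encode homeobox factors and had RNAs higher together with the gene in the authors' deposited table. The Otx2 RNA lay over the annotated antisense gene Otx2os1 and the Gsc RNA over Gm10000. Dab2, an endocytic adaptor and 1 of 12 endoderm genes, had a higher RNA (1.64) 376256 bp from a lower gene transcript (-1.81) in the authors' deposited table. Other genes of these lists had a listed gene transcript but no intergenic RNA here: Tubb3 was higher, and Olig2, Bmp4, Col4a1 and Col4a2 were lower. None of the 10 fibroblast genes had an intergenic RNA here, and the gene transcript of 1 of them, Vim, was listed as higher. On the chromosomes used, 4 of 10 neuroectoderm, 2 of 9 mesoderm, 3 of 11 endoderm and 1 of 8 fibroblast genes had a listed gene transcript. The share was 8.46% over all coding genes there, expressed in these cells or not. The table gives no expression level, so these lists do not measure how many cells had left the stem cell state, and their part in the changes was not tested.

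Genes that end or degrade such RNA gave few listed transcripts. These lists, like the pluripotency and lineage lists above, are short, and none was tested against the background. On the chromosomes used, 0 of 20 genes of cleavage, polyadenylation and termination and 0 of 12 Integrator genes had a listed gene transcript, beside 8.46% of all coding genes there. Of 16 genes of nuclear RNA decay 1 had, the exosome nuclease gene Dis3, which was lower, and of 16 m6A genes 1, Igf2bp3, also lower. Neither of these 2 genes had an intergenic RNA among the 403. Other intergenic transcripts carried names of the termination genes in 5 cases, all higher, and of the m6A genes in 4, of which 3 were higher. Of the 1280 other intergenic transcripts on the chromosomes used, 76.2% were higher.

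MapR peaks were not used by the rule and come from other libraries than the cheRNA fold changes, of the same genotypes. Relative RNH density is the number of peaks that touch a set of transcripts per Mb, divided by the library's peaks per Mb over the chromosomes used. The libraries held 21519 (TKO replicate 1), 5049 (TKO replicate 2), 19263 (WT replicate 1) and 5470 (WT replicate 2) peaks there. Relative density over the 403 was 2.45 and 3.72 in TKO and 2.43 and 3.28 in WT, or 3.08 ± 0.90 and 2.86 ± 0.61 (SD, n = 2). The genotypes overlapped, and the log2 ratio was 0.10 (two-sided exact permutation test, p = 0.667, where 2 against 2 libraries cannot go below 0.333). Its sign changed without TKO replicate 2 (-0.20) and without WT replicate 1 (-0.12). The share of the 403 touched by a peak was 23.6% and 9.43% in TKO and 22.6% and 9.93% in WT, and followed the peak number of the library, with a difference of 0.25 percentage points (exact permutation p = 1.0). Of the other intergenic transcripts, 19.6% and 6.64% were touched in TKO and 20.9% and 5.86% in WT. Of the gene transcripts of the same names, 39.6% and 10.1% were touched in TKO and 34.9% and 12.2% in WT. All 4 libraries had a density above the library average over the 403.

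Split by cheRNA direction, the density differed between genotypes in opposite ways. Over the 248 higher RNAs it was 2.84 and 4.17 in TKO and 2.26 and 2.31 in WT, so that the genotypes did not overlap (log2 ratio 0.59, exact permutation p = 0.333). They did overlap with equal list lengths (1.90 and 4.17 in TKO, 1.99 and 2.37 in WT, exact permutation p = 1.0) and with peaks of -log10 q of at least 5 (2.40 and 5.70 in TKO, 2.19 and 2.65 in WT, exact permutation p = 0.667). Over the 155 lower RNAs it was 1.93 and 3.11 in TKO and 2.64 and 4.56 in WT, which overlap (log2 ratio -0.50, exact permutation p = 0.667). Within each library, higher minus lower was 0.56 and 0.42 on the log2 scale in TKO and -0.22 and -0.98 in WT. The genotypes differed by 1.09 in this measure, with both TKO libraries above both WT libraries (exact permutation p = 0.333, the smallest this design gives, 0.583 after Benjamini-Hochberg adjustment over 7 tests). The design therefore cannot put this difference past a threshold of 0.05. The difference was 0.71 without WT replicate 2 and 1.94 with peaks of -log10 q of at least 5. The same difference was 0.99 over the gene transcripts of the same names, 0.83 over other gene transcripts and 1.00 over the other intergenic transcripts, where the genotypes overlapped, so it was not particular to the 403.

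**Figure D5:**
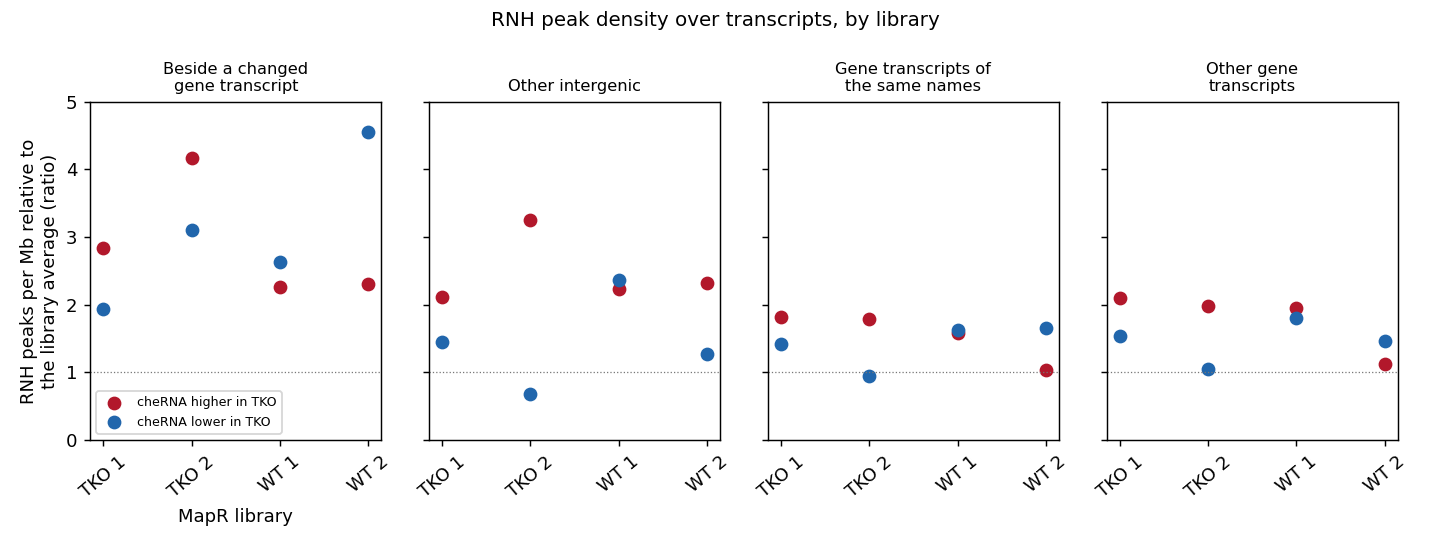
Points give the relative RNH peak density of each MapR library over transcripts higher (red) or lower (blue) in TKO, in 4 sets of transcripts; the dotted line at 1 is the library average. Over the intergenic transcripts beside a changed gene transcript, red lies above blue in both TKO libraries (2.84 over 1.93 and 4.17 over 3.11) and below it in both WT libraries.

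With both directions pooled, the 403 had a higher relative RNH density than the other intergenic transcripts in the same libraries. The log2 difference in relative density averaged 0.43 (1.35-fold) and was positive in 4 of 4 libraries (two-sided exact sign-flip permutation test over 4 libraries, p = 0.125, the smallest possible, adjusted p = 0.583). Among transcripts that touch no annotated gene it averaged 0.24 and was positive in 3 of 4 libraries (0.16 and 0.48 in TKO, -0.10 and 0.42 in WT, exact permutation p = 0.25). The median widths of the full sets were alike, as given above. Higher RNAs read 2.84 and 4.17 in TKO, beside 2.12 and 3.25 for higher other intergenic transcripts. In WT they read 2.26 and 2.31 beside 2.23 and 2.33, with no clear excess. Lower RNAs read 1.93 and 3.11 in TKO beside 1.45 and 0.69 for lower other intergenic transcripts. In WT they read 2.64 and 4.56 beside 2.37 and 1.27. The values 0.69 and 1.27 rest on 7 and 14 peaks. The gene transcripts of the same names differed from other gene transcripts by -0.08 (exact permutation p = 0.25, adjusted p = 0.583). Peaks were denser around the starts than over the whole RNAs, a measure that rises in narrow windows because a peak counts once it touches one: within 1 kb of the starts the 403 had relative densities of 9.17 and 10.5 in TKO and 10.4 and 12.6 in WT, beside 20.7 and 19.9 in TKO and 19.0 and 16.3 in WT at the gene transcripts of the same names. At the starts of the other intergenic transcripts the densities were 8.76 and 12.6 in TKO and 9.38 and 8.44 in WT. In TKO replicate 2 the 403 were thus below them. At the starts of lower RNAs among the 403 there were 28 and 7 peaks in TKO and 35 and 19 in WT, and at those of higher RNAs 35 and 10 in TKO and 29 and 3 in WT.

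Most of the 403 were not touched by any peak. In 271 (67.2%) no library had one, and in 16 all 4 did, 7 of them higher and 9 lower in cheRNA. Such counts over the 4 libraries were not made for the other sets of transcripts. By the smallest of the 4 libraries' strongest fold enrichments, the leading ones were at Glipr2, at Cd55, a complement regulator, at Otx2 and at the longer Myc RNA. At Glipr2 the peaks had fold enrichments of 4.74 and 5.52 in TKO and 5.21 and 5.29 in WT, as the authors' peak lists give them. The RNA at Glipr2 was 2.82 higher in the authors' deposited table, with peaks of alike height in both genotypes. The peak windows at Glipr2 and Cd55 overlapped an untranslated region of an annotated gene, unlike those at Otx2 and Myc. The peaks at Glipr2 and Cd55 thus do not describe intergenic sequence alone. In the Pim1 window printed above the fold enrichments were 4.01 and 4.68 in TKO and 4.36 and 5.42 in WT, with an RNA at -1.06 in the authors' deposited table. In the Lpp window they were 3.84 and 5.36 in TKO and 5.12 and 5.33 in WT, for the downstream RNA that read 2.32 in the authors' deposited table.

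Peaks in both libraries of 1 genotype and neither of the other touched few of the intergenic RNAs described here. Those in TKO only were 5, at Efna5, an ephrin ligand, Srrm4, a neuronal splicing factor, Dtx1, a regulator of Notch signalling, Bcat1 and Tarm1. All 5 RNAs were higher in cheRNA, beside 61.5% of all the intergenic RNAs described here, and this difference was not tested. The clearest was Efna5, where the peaks had fold enrichments of 5.29 and 5.41 with summits 87 bp apart, over an RNA (chr17:62109482-62112841) that read 3.38 beside a gene transcript at -1.58 in the authors' deposited table. At Bcat1 they were 4.60 and 4.91, with summits 138 bp apart and 19 CG in the window. At Srrm4 and Dtx1 the 2 summits lay 42737 and 16323 bp apart and are different peaks within 1 long RNA. Peaks in WT only were 3, at Msln, or mesothelin, and at the RNA-binding protein gene Serbp1, both lower in cheRNA, and at the dynein gene Dnah8, which was higher. At Serbp1 and Msln the 2 summits lay 7807 and 545 bp apart, and at Dnah8 10 bp apart. Replicate 2 of either genotype had far fewer peaks, as given above, and the part of list length in a missing peak was not tested. These patterns were not counted for the other intergenic transcripts or for gene transcripts. Whether their number, or their directions in cheRNA, are particular to the RNAs described here is therefore not known.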

How the data were processed

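Values came from 1 table for 6 cheRNA samples and 6 MapR peak lists, of 32 samples; other assays were not analysed here. The submitters' processing notes name mm10 and the tools TopHat2, BWA, DESeq2, MACS2, bedtools and SAMtools, with neither version nor role. The authors' deposited table holds a log2 fold change for each transcript, with no p-value. It was multiplied by -1 to read TKO over WT, an inference from the deleted H1 genes. The deposited peak lists give a fold enrichment (ratio), -log10 p, -log10 q and a score for each peak. No counts were used, so depth is unknown. The class of a transcript is the prefix of its name, which no header defines.

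Each intergenic transcript was paired with the nearest gene transcript of its name. RNH peaks touching a nuclease-only control peak were removed, and overlap meant at least 1 bp. MapR results were compared by two-sided exact permutation or sign-flip tests with Benjamini-Hochberg adjustment over 7 tests. On simulated data only the recovery of the TKO over WT density ratio was checked, not the p-values or the adjustment. The labels do not say whether replicates were separate cultures, so p-values measure only the spread between these libraries, which may be technical. Tools were Python 3.11.15, numpy 2.4.6, pandas 2.3.3, scipy 1.17.1 and pysam 0.24.0.

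The transcripts and lists were chosen with earlier results of these data known. Named were the 6 highest and 6 lowest, the names with the most transcripts (ties kept), the 4 largest per direction within 5 kb downstream, the 5 largest opposite pairs, the 4 strongest with peaks in all 4 RNH libraries, and list genes. Some items that the rule would name are left out of the text. Named besides these, after their values were seen, were Gcnt2, Traf1, Grik3, Etnk1, the 6 pairs with a lower RNA and a higher gene, Pim1, and the genes with peaks in 1 genotype. Alternatives were other chromosome, distance, size, annotation, peak and library choices.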

Additional observations from a re-analysis of the deposited data

How the results depend on the processing

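Limits are set by the deposited files: the table holds only changed transcripts, with no spread between samples, so neither a missing pair nor a level can be assessed, and 2 RNH libraries per genotype cannot pass 0.05. The share of higher intergenic RNAs was 69.0% among those with an absolute log2 of at least 2 and lay between 59.3% and 63.9% under the other 5 alternatives. The share in the same direction was 92.5% where both had an absolute log2 of at least 2, 88.3% within 50 kb, and 77.9% for RNAs that touch no annotated gene, an alternative that was chosen after seeing the data, as were the settings without Bcat1 and Sox5, without annotated genes in the MapR results, and with crossed replicate numbers. The TKO over WT density ratio over all 403 changed sign with a -log10 q of at least 5 (-0.21) and with equal list lengths (-0.10), and ranged from -0.20 without TKO replicate 2 to 0.40 without TKO replicate 1. The difference in the share touched was -1.49 percentage points at -log10 q of at least 5, -0.99 with equal list lengths, -0.97 outside annotated genes, -0.39 without Bcat1 and Sox5, and -6.82 to 7.32 with 1 library left out; the cause was not tested.

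The higher-minus-lower difference kept its sign in all 13 alternatives, from 0.71 without WT replicate 2 to 1.94 at -log10 q of at least 5. The density ratio over higher RNAs ranged from 0.31 without TKO replicate 2 to 0.87 without TKO replicate 1, and over lower RNAs from -0.11 without WT replicate 2 to -1.32 at -log10 q of at least 5. The excess over other intergenic transcripts ranged from 0.24 outside annotated genes to 0.58 over its 11 alternatives. With 1 library left out no test was made. With the replicate block, the paired difference of higher minus lower RNAs was again 1.09 (exact sign-flip permutation p = 0.5, the smallest for 2 pairs), that over all 403 was 0.10, and 0 of 5 results passed 0.05. Same-numbered libraries deviated with a correlation of -0.23 across 18 chromosomes in their shares of peaks; with crossed numbers 0 of 5 results passed 0.05.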

Other observations

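Other RNA classes at the same genes mostly moved with the intergenic RNAs. At the 295 names the authors' deposited table also lists 31 transcripts of the class named intra, and 28 of these changed in the direction of the median intergenic RNA of the name. The same held for 35 of 45 transcripts of the class 5prev and for 7 of 8 of the class BiDi. Of the 31, 45 and 8 transcripts, 20, 19 and 5 were higher, and no share at other genes was computed. What these class names stand for is not defined in the table. All come from the same contrast and samples and are not independent of it.

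In 8 names the intergenic RNAs went in both directions: H60c, Pfkp, Jarid2, Lpp, Sestd1, Syndig1, Foxo1 and Serbp1. At Foxo1, a forkhead transcription factor of insulin signalling, the RNAs read 3.29, -1.50 and -1.80 around a gene transcript at -1.01 in the authors' deposited table. At Jarid2, a subunit of Polycomb repressive complex, they read -3.61, -1.87 and 1.70 around a gene transcript at -1.06 in the authors' deposited table. In H60c the RNA nearest its gene, at 1671 bp, read -4.05 and the one at 81454 bp 1.97 in the authors' deposited table.

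Base composition differed little between the sets. Median GC content was 44.6% in the 403 and 44.1% in the other intergenic transcripts, and the repeat-masked share was 24.4% and 27.9%. Of the 19 pairs whose gene transcript was touched by an RNH peak in all 4 libraries, 5 had an intergenic RNA touched in all 4 and 9 had one touched in none.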
